A study of Mus musculus with 6 samples.

Results

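The genes described here are the nuclear-encoded subunits of the mitochondrial respiratory chain and of ATP synthase, read out of RNA sequencing of mouse hematopoietic cells transformed with MLL-AF9. They were picked by symbol and by level. Symbols had to start with Uqcr or Atp5, be Sdha to Sdhd, or follow 1 of 2 further patterns. These were Nduf with a, b, c, s or v and a number, and Cox4 to Cox8 with a, b or c. Cox4i1 and Ndufab1 fall outside these patterns. A gene was kept when its count divided by the library total was at least 1 on the CPM scale (reads scaled to a common library size) in at least 3 of 6 libraries. The table held 24062 genes. Of these, 82 matched by name, and 75 passed the level rule as well. Those 75 were at 1 CPM or more in all 6 libraries. CPM values below are scaled by the TMM method as well, except those set against the level rule. They compare libraries for 1 gene, not genes with each other. By complex, 34 members belong to complex I, 4 to complex II, 8 to complex III, 12 to complex IV and 15 to complex V. The other 2, Atp5sl and Atp5s, carry Atp5 names but are not subunits of ATP synthase.

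Complexes I and II pass electrons from NADH and from succinate to ubiquinone, complex III passes them on to cytochrome c, and complex IV reduces oxygen. Complexes I, III and IV pump protons across the inner mitochondrial membrane, and complex V, ATP synthase, uses the returning protons to make ATP. Most subunits are encoded in the nucleus, while a small core of complexes I, III, IV and V is encoded in mitochondrial DNA. Leukemic stem cells of acute myeloid leukemia are known to rely on oxidative phosphorylation.

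One group of cells carried the A20 f/f genotype with Rosa Cre-ER and are labelled A20 KO. The cells it was set against carried A20 +/+ with the same Rosa Cre-ER and are labelled A20 WT. A20 is the protein product of Tnfaip3, a ubiquitin-editing inhibitor of NF-kB signalling. In both groups, lineage-negative hematopoietic cells had been transduced with a retrovirus carrying MLL-AF9, a leukemia fusion oncogene, and were grown with IL-6, IL-3 and SCF. All cultures received 1 µM 4-hydroxytamoxifen for 48 h, which activates Cre-ER, so the WT-labelled cells carried both active Cre and the fusion. Rosa Cre-ER is expressed from a broadly active locus rather than from a cell type promoter. Each group has 3 libraries. The labels do not say whether these came from separate mice, transductions or cultures, so any p-value below rests on the scatter of 3 libraries a group, which could be purely technical.

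Several features of the 6 libraries touch every result. They held 16113320 to 25415274 counted reads. Tnfaip3, the targeted gene, reached 100.1, 74.1 and 79.1 CPM in KO-labelled libraries, with 7.39, 8.67 and 8.24 CPM in WT-labelled ones, which goes against the label. The groups are therefore called KO-labelled and WT-labelled throughout, and every direction below is that of the labels. Whether these reads come from outside the deleted part of the gene cannot be seen in gene-level counts. Xist, the RNA of the inactive X chromosome, gave 0, 4.76 and 4.77 CPM in KO-labelled libraries and 564, 2109 and 2090 CPM in WT-labelled ones, so donor sex and the label cannot be told apart. Replicate 1 stood apart in both groups. Gapdh was at 2716 CPM in KO-labelled replicate 1 against 254 and 248 CPM in the other KO-labelled libraries. In WT-labelled replicate 1 it was at 2645 CPM, against 181 and 167 CPM in the other WT-labelled libraries. Of the 31-base words in Gapdh transcripts, 79.9% also occur in transcripts of other genes, so Gapdh counts may depend on read assignment. Of all tested genes, 86 (0.709%) were at least 2-fold up in replicate 1 of both groups. The 8 hematopoietic and myeloid markers summed to 3145 to 3994 CPM in KO-labelled and 1757 to 3074 CPM in WT-labelled libraries, and the 4 adult globin genes were at 0. The 5 megakaryocyte markers summed to 0.901 to 1.13 CPM in KO-labelled and 27.7 to 41.3 CPM in WT-labelled libraries, and those of mast cells and basophils, T cells, B cells and endothelial cells were also lower without overlap in KO-labelled libraries. The 5 stromal markers went the other way, at 3.02 to 5.49 CPM in KO-labelled and 0.793 to 2.08 CPM in WT-labelled libraries. The part of such cells in the results below was not tested. In bulk RNA a change in the number of cells of a type and a change in RNA per cell cannot be told apart.

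The respiratory chain genes stayed close to even between the groups. Ndufb8 of complex I and Atp5f1 of complex V were higher in the KO-labelled libraries and Atp5sl was lower, at an adjusted p under 0.05 (edgeR quasi-likelihood test, Benjamini-Hochberg over all 12126 tested genes). That is 3 of 75 members, or 4%, while 27.3% of all tested genes passed the same test, 13.7% in the higher and 13.7% in the lower direction. Since weakly and strongly read genes differ in how easily they pass, the share was also taken over the 6487 genes that averaged 30 CPM or more, a level chosen after the values were seen. In that range 23.3% passed, against 2.78% of the 72 members in it. At an unadjusted p under 0.05 in edgeR, 6 of 75 members passed, 5 higher and 1 lower. Of all 12126 tested genes 4830 passed at that threshold, 2371 higher and 2459 lower.

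The fold changes were small as well as rarely called. The median size of the log2 fold change was 0.15 over the members, against 0.38 over all tested genes and 0.29 over those with a mean of at least 30 CPM. The difference was under 1.5-fold for 72 of 75 members (96%), against 64.7% of all tested genes and 78.0% of those with a mean of at least 30 CPM. The precision of the fit allows changes of moderate size in single genes: the 95% interval of the log2 fold change lay within ±1 for 67 of 75 members and within ±log2 of 1.5 for 38. A gene that missed the threshold is therefore not shown to be equal between the groups.

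**Figure D1:**
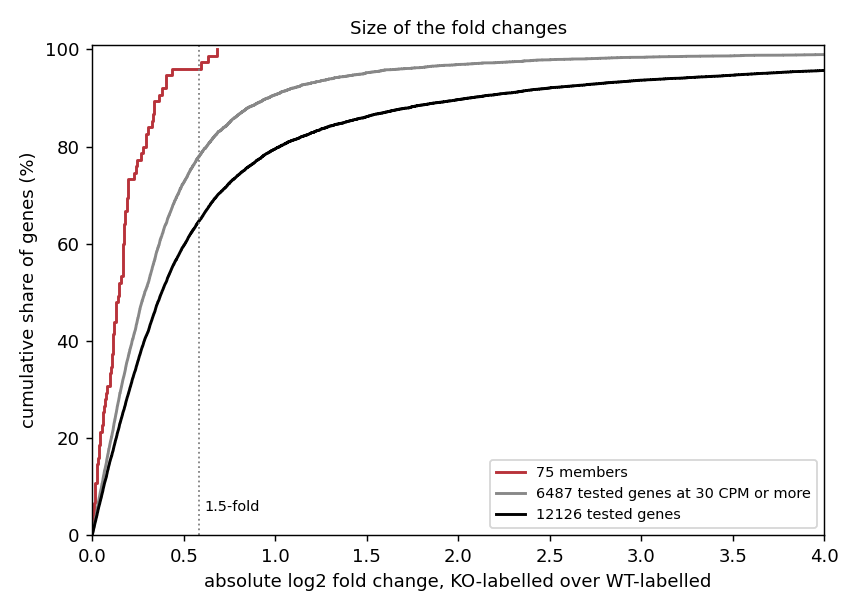
Size of the log2 fold change (KO-labelled over WT-labelled, without sign) for the 75 respiratory chain members, for the 6487 tested genes at 30 CPM or more and for all 12126 tested genes, as the share of genes at or below each size. The members' curve lies to the left, with a median of 0.15 against 0.29 and 0.38 for the other curves, and the dotted line marks 1.5-fold.

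Signs leaned one way. The log2 fold change was positive for 55 of 75 members (73.3%), against 47.2% of all tested genes, and the median was 0.08 over the members and -0.04 over all tested genes. This lean depended on 1 library. WT-labelled replicate 3 was the lowest of the 6 libraries for 56 of 75 members (74.7%), while it was the lowest for 18.5% of all tested genes. WT-labelled replicate 1 was the highest for 33 of 75 members, and for 29.2% of all tested genes. Without WT-labelled replicate 3 the members' median was -0.05, and it was 0.05 to 0.23 when any other single library was left out. The 3 KO-labelled libraries lay closer together: the SD was larger in WT-labelled libraries for 67 of 75 members (89.3%), against 72.2% of all tested genes. The groups did not overlap for 10 members, 8 of them higher and 2 lower in KO-labelled libraries, which is 13.3% against 47.6% of all tested genes.

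**Figure D2:**
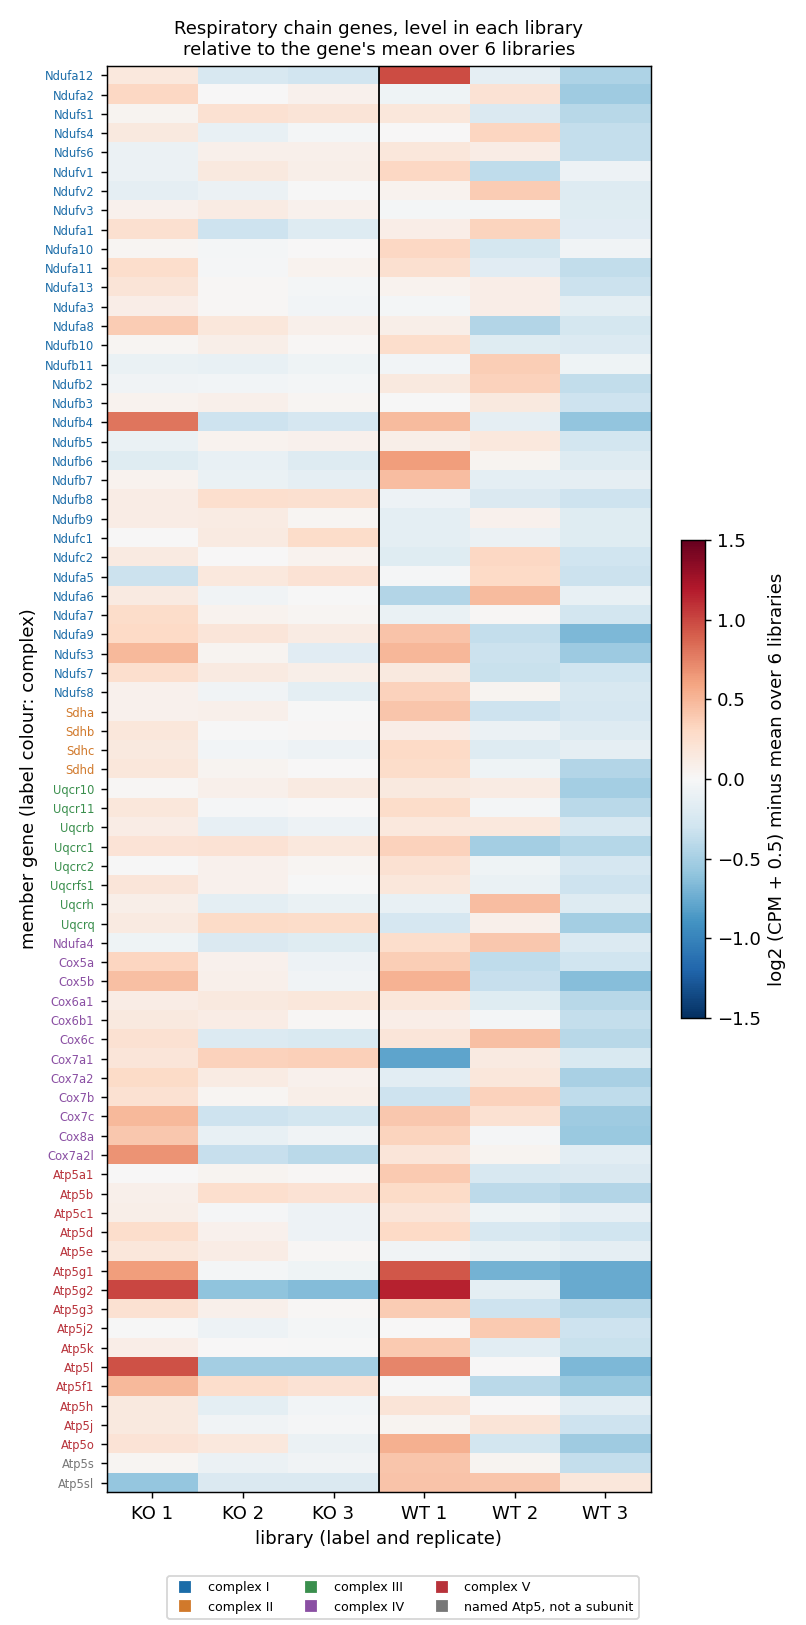
Members in each of the 6 libraries, 1 of the 75 not shown, KO-labelled left of WT-labelled, as log2 of CPM plus 0.5 relative to each gene's mean over the 6 libraries, grouped by complex. WT-labelled replicate 3 is the lowest library for 56 of 75 members (18.5% of all tested genes). WT-labelled replicate 1 is the highest for 33 members (29.2% of all tested genes).

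The members were also summed by complex. Complex I summed to 3650, 3466 and 3445 CPM in KO-labelled libraries against 3667, 3520 and 2826 CPM in WT-labelled libraries. Complex V, the most heavily read of the complexes, summed to 6341, 5720 and 5580 CPM in KO-labelled libraries against 6885, 4769 and 4221 CPM in WT-labelled libraries. In both, the KO-labelled libraries lay inside the WT-labelled range. Complex II, at 844, 787 and 764 CPM in KO-labelled against 955, 685 and 631 CPM in WT-labelled libraries, did so too. Complex III summed to 1709, 1626 and 1632 CPM in KO-labelled against 1697, 1699 and 1261 CPM in WT-labelled libraries. Complex IV summed to 3294, 2607 and 2587 CPM in KO-labelled against 2988, 2982 and 2047 CPM in WT-labelled libraries. In complexes III and IV the highest library was KO-labelled replicate 1, and in all 5 complexes the lowest was WT-labelled replicate 3. Over complexes I to V the sum was 14685 ± 1004 CPM in KO-labelled and 13611 ± 2602 CPM in WT-labelled libraries (SD, n = 3 each), a difference smaller than the spread among WT-labelled libraries.

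Complex I, the NADH dehydrogenase, had 1 of 34 members called. Ndufb8, an accessory subunit of the proton-pumping membrane arm, had 176, 194 and 193 CPM in KO-labelled libraries and 154, 140.1 and 132 CPM in WT-labelled libraries. All 3 KO-labelled values lay above all 3 WT-labelled values. The log2 fold change was 0.40 (SE 0.12, 95% interval 0.12 to 0.69, edgeR adjusted p = 0.046), a 1.32-fold difference. The log2 fold changes of the 34 members ran from -0.38 for Ndufa12 to 0.40 for Ndufb8, with a median of 0.07, and 24 were positive.

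By module of complex I, the medians were 0.05 for the 8 members of the NADH-oxidizing module, 0.13 for the 8 of the quinone-binding module and 0.08 for the 18 of the membrane arm. Ndufv1, which binds NADH and the flavin, had 78.7, 93.3 and 89.2 CPM in KO-labelled against 104, 64.4 and 79.7 CPM in WT-labelled libraries (log2 fold change 0.07). Its KO-labelled values lay inside the WT-labelled range. Ndufc1, Ndufv3 and Ndufa7 were the other complex I members without overlap in the higher direction. Their log2 fold changes were 0.28, 0.16 and 0.24, and none was called.

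The most-read complex I member was Ndufb11, an X-linked subunit of the membrane arm. It had 176, 175 and 179.6 CPM in KO-labelled libraries and 183, 244 and 179.7 CPM in WT-labelled libraries. The groups did not overlap, but the gap between KO-labelled replicate 3 and WT-labelled replicate 3 was a small part of the spread among WT-labelled libraries, and the log2 fold change of -0.19 was not called (adjusted p = 0.39). The other X-linked members, Ndufa1 of complex I and Cox7b of complex IV, were not called either (-0.17 and 0.19). Whether the difference in Xist bears on the X-linked members was not tested. Ndufs5 of complex I, an accessory subunit, fell outside the level rule with 1 read in all, in KO-labelled replicate 3. It shares 27.4% of its 31-base words with BC002163, a gene that held 7, 32 and 23 reads in KO-labelled and 12, 14 and 26 reads in WT-labelled libraries.

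**Figure D3:**
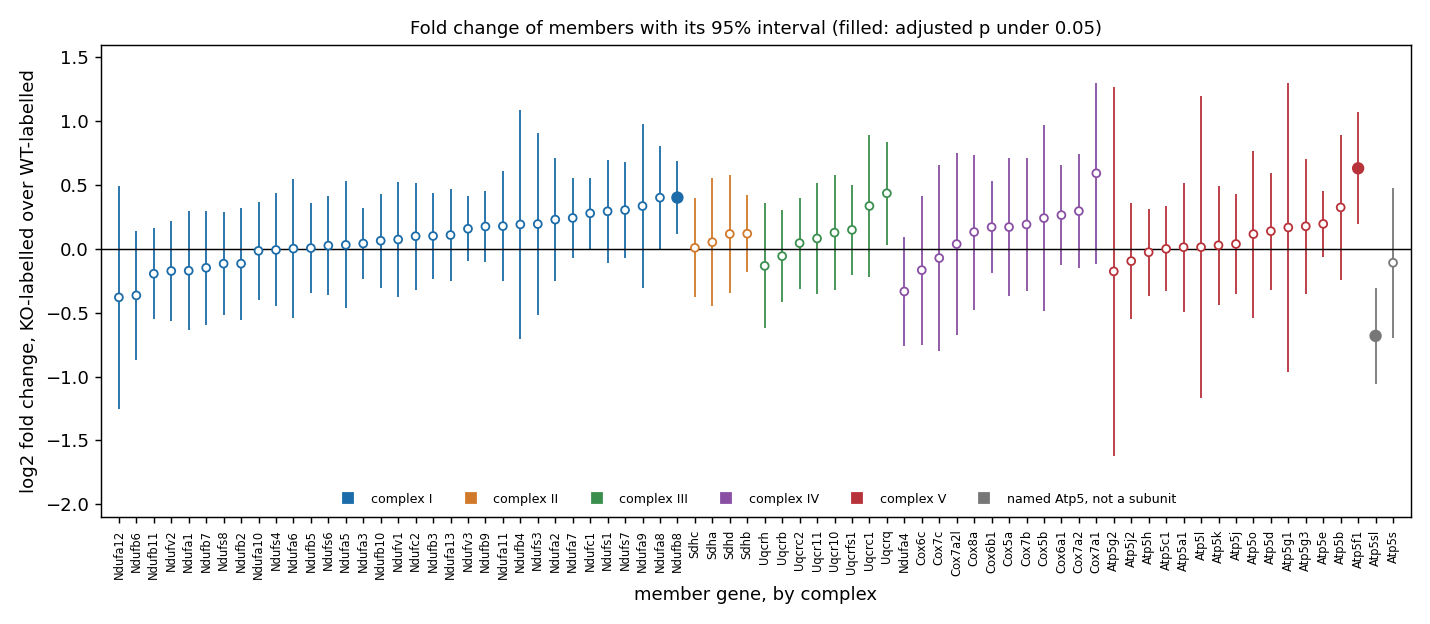
Log2 fold change (KO-labelled over WT-labelled) with its 95% interval for the members, 1 of the 75 not shown, grouped by complex, from the edgeR fit over all tested genes. The filled points mark the 3 called members, Ndufb8 and Atp5f1 above 0 and Atp5sl below 0; most intervals cross 0.

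Complex II, succinate dehydrogenase, is wholly nuclear-encoded, and its 4 subunits were all measured. Sdha, the flavoprotein that oxidizes succinate, had 286, 286 and 272 CPM in KO-labelled libraries against 364, 220.3 and 229 CPM in WT-labelled libraries. Sdhb, the iron-sulfur subunit, had 116, 103 and 104 CPM in KO-labelled against 110.5, 97.1 and 89.8 CPM in WT-labelled libraries. Every KO-labelled value of Sdha lay between the highest and the lowest WT-labelled value. Sdhc, a membrane anchor, had 137, 119.9 and 116 CPM in KO-labelled against 151, 108 and 112 CPM in WT-labelled libraries. Sdhd, the other anchor, had 305, 278 and 272 CPM in KO-labelled against 329, 259.7 and 200.2 CPM in WT-labelled libraries. The log2 fold changes were 0.05, 0.12, 0.01 and 0.12 for Sdha, Sdhb, Sdhc and Sdhd. By edgeR 0 of the 4 were called, with 0 at an unadjusted p under 0.05, and DESeq2 and limma-voom called 0 as well.

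Complex III, cytochrome bc1, had 0 of 8 members called and a median log2 fold change of 0.10; 1 of the 8 passed at an unadjusted p under 0.05 in edgeR, and DESeq2 and limma-voom called 0. The most-read member was Uqcrh, the hinge subunit that sits beside cytochrome c1. It had 420.3, 356 and 368 CPM in KO-labelled and 364, 545 and 346 CPM in WT-labelled libraries, with WT-labelled replicate 2 standing above the rest (log2 fold change -0.13). The member closest to a call was Uqcrq, a small membrane subunit. It had 198, 221 and 219 CPM in KO-labelled libraries against 152, 192 and 127 CPM in WT-labelled libraries. These groups did not overlap, and the log2 fold change was 0.44 (SE 0.17, edgeR adjusted p = 0.10). Without WT-labelled replicate 2, the highest of its group, Uqcrq was called (0.60, adjusted p = 0.039). The core proteins Uqcrc1 and Uqcrc2 and the Rieske iron-sulfur protein Uqcrfs1 had log2 fold changes of 0.34, 0.05 and 0.15, with overlapping groups.

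Complex IV, cytochrome c oxidase, also had 0 members called, of 12, with a median log2 fold change of 0.17; 0 passed at an unadjusted p under 0.05, and DESeq2 and limma-voom called 0 of them as well. Its most-read member was Cox7b, with 496, 435 and 450.4 CPM in KO-labelled against 343, 540.4 and 326 CPM in WT-labelled libraries, where WT-labelled replicate 2 lay above every KO-labelled library. Ndufa4, which was named as a complex I subunit and is now placed in complex IV, had 263, 236 and 243 CPM in KO-labelled and 331, 364 and 239.7 CPM in WT-labelled libraries. Its log2 fold change of -0.33 was not called (adjusted p = 0.22).

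Several complex IV subunits come as a ubiquitous and a muscle or testis form, and these cells read almost only the ubiquitous forms. Cox6a1 had 189, 194 and 198 CPM in KO-labelled and 197, 154 and 132 CPM in WT-labelled libraries, while its muscle form Cox6a2 had 7, 5 and 3 reads in KO-labelled and 1, 1 and 4 reads in WT-labelled libraries. Cox6b1 had 273, 266 and 249 CPM in KO-labelled against 265, 242 and 193 CPM in WT-labelled libraries, while its testis form Cox6b2 had 2 reads, both in WT-labelled replicate 2. Cox8a had 479.7, 335 and 351 CPM in KO-labelled and 457, 360.0 and 247 CPM in WT-labelled libraries, while Cox8b had 1 read, in WT-labelled replicate 1, and Cox8c had 0. Cox7b2 had 0 reads, and Ndufa4l2, the paralog of Ndufa4, had 2, both in KO-labelled replicate 1. None of these minor forms passed the level rule. They had 0 to 7 reads per library, around the floor of 3 reads used here, which is 0.125 to 0.179 CPM in these libraries, and at this depth a difference between the groups was not detectable.

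The exception was Cox7a1, the muscle form of subunit 7a, which passed the rule as its least-read member. It had 6.71, 7.58 and 7.64 CPM in KO-labelled against 3.17, 6.49 and 4.92 CPM in WT-labelled libraries. The groups did not overlap, but the log2 fold change of 0.59 (SE 0.30) was not called (adjusted p = 0.19). Cox7a2, the form most tissues use, had 352, 315 and 302 CPM in KO-labelled and 258, 325 and 206 CPM in WT-labelled libraries. Cox7a1 made up 1.87%, 2.35% and 2.46% of the reads of this pair in KO-labelled and 1.21%, 1.96% and 2.33% in WT-labelled libraries (exact two-sided permutation p = 0.4; the smallest p that 3 against 3 allows is 0.1). Cox7a2l, a relative that joins complexes III and IV into supercomplexes, had 331, 163 and 157 CPM in KO-labelled and 235, 214 and 185 CPM in WT-labelled libraries. Its KO-labelled replicates 2 and 3 lay below every WT-labelled library, and its replicate 1 above them all. The level rule uses CPM without TMM scaling. On that scale the nearest genes inside were Cox7a1 and Atp5s, whose third-highest library was at 6.61 and 8.50 CPM. The nearest outside was Cox6a2 at 0.209 CPM.

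**Figure D4:**
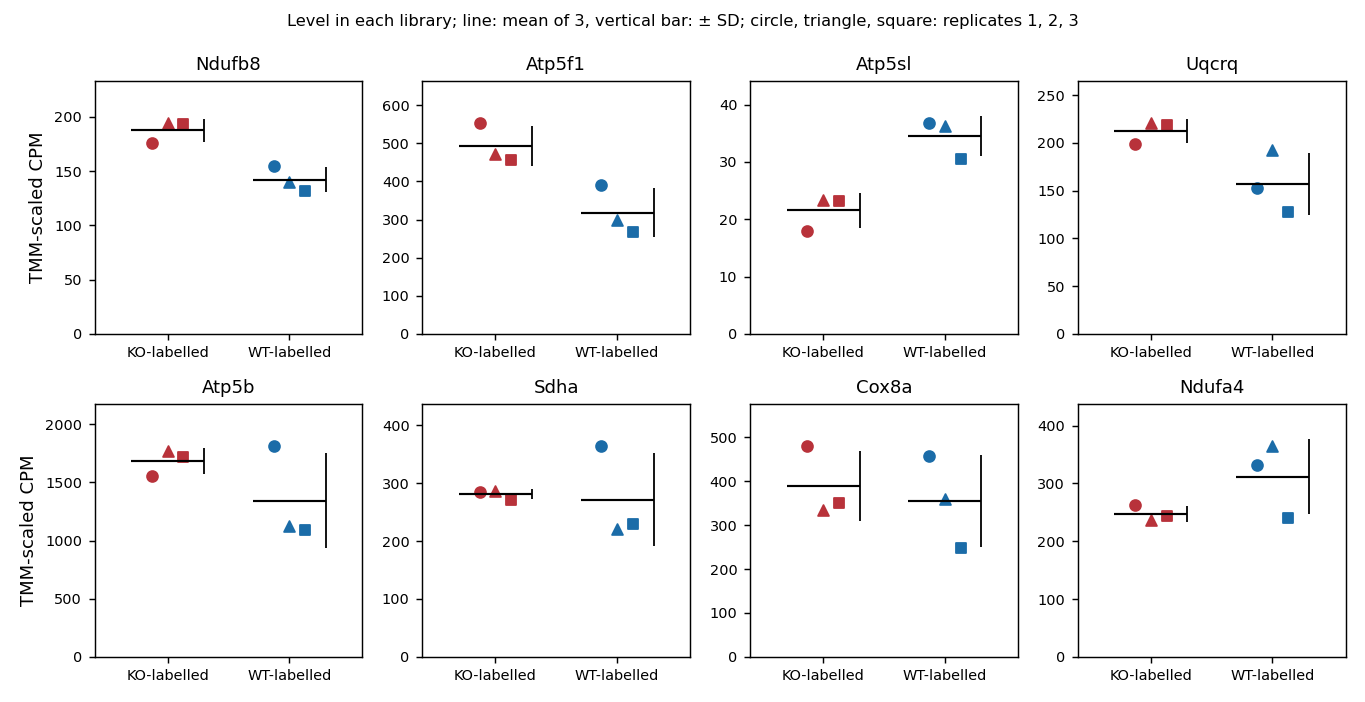
TMM-scaled CPM of 8 members in each library, KO-labelled left of WT-labelled, with points for libraries and a line for each group's mean with its SD. The groups do not overlap for Ndufb8, Atp5f1, Atp5sl and Uqcrq, and overlap for Atp5b, Sdha, Cox8a and Ndufa4.

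Complex V, ATP synthase, had 1 of 15 members called. Atp5f1, subunit b of the peripheral stalk that holds the catalytic head still, had 553, 471 and 456 CPM in KO-labelled libraries against 389.9, 298 and 268 CPM in WT-labelled libraries. All KO-labelled values lay above all WT-labelled values. The log2 fold change was 0.63 (SE 0.19, 95% interval 0.19 to 1.07, edgeR adjusted p = 0.044), a 1.55-fold difference and the largest rise among the 75 members. Of its 31-base words 46.7% also occur in transcripts of other genes, so its counts may depend on how shared reads were assigned. Its partners in the stalk did not share its rise past the test: Atp5h, Atp5j and Atp5o had log2 fold changes of -0.03, 0.04 and 0.12, with overlapping groups. Whether Atp5f1 differs from them was not tested.

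The catalytic head carried the most reads of any module. Atp5b, the catalytic beta subunit, had 1555, 1768 and 1719.9 CPM in KO-labelled libraries and 1811, 1127 and 1088 CPM in WT-labelled libraries. Its KO-labelled libraries sat between WT-labelled replicate 1 and the other WT-labelled replicates, and the log2 fold change of 0.33 was not called (adjusted p = 0.37). Atp5a1, the alpha subunit, had 1065, 1091 and 1073 CPM in KO-labelled and 1389, 899 and 911 CPM in WT-labelled libraries. It shows the same order, with a log2 fold change of 0.01. Atp5e, the epsilon subunit, did not overlap, with 188, 180.2 and 169.8 CPM in KO-labelled against 162, 156 and 152 CPM in WT-labelled libraries, and was not called (0.20, adjusted p = 0.23).

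The c ring, which turns with the proton flow, is built from 1 mature protein that Atp5g1, Atp5g2 and Atp5g3 all encode. Atp5g1 had 213, 135 and 132 CPM in KO-labelled against 262, 83.9 and 80.9 CPM in WT-labelled libraries. Atp5g2 had 325, 107 and 104 CPM in KO-labelled against 362, 147 and 96.2 CPM in WT-labelled libraries. Atp5g3 had 270.2, 242 and 233 CPM in KO-labelled against 299, 186 and 174 CPM in WT-labelled libraries. All 3 genes were highest in replicate 1 of each group. Atp5g2 made up 40.2%, 22.1% and 22.2% of the reads of the 3 genes in KO-labelled and 39.2%, 35.3% and 27.4% in WT-labelled libraries (exact two-sided permutation p = 0.4). Over the 5 share comparisons made (Cox6a1, Cox7a1 and the 3 Atp5g genes) the exact p lay between 0.3 and 0.5, and 0.5 for each after Benjamini-Hochberg adjustment. Atp5g2 shares 87.7% of its 31-base words with other genes, so its share may also depend on read assignment.

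The strongest call was of a gene that is not a subunit. Atp5sl, now also named Dmac2, is a factor in the assembly of the membrane arm of complex I in human cells. It had 18.0, 23.4 and 23.2 CPM in KO-labelled libraries against 36.8, 36.3 and 30.5 CPM in WT-labelled libraries. The groups did not overlap, and the log2 fold change was -0.68 (SE 0.16, 95% interval -1.06 to -0.30, edgeR adjusted p = 0.019). Its relative Atp5s had 8.65, 7.97 and 8.18 CPM in KO-labelled and 11.5, 8.73 and 6.50 CPM in WT-labelled libraries, with a log2 fold change of -0.11 that was not called.

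The 3 calls depended on which libraries entered the fit. Each was lost when any single KO-labelled library was left out, where 0 of 75 members were called. The adjusted p of Atp5sl was then 0.055 to 0.061, that of Atp5f1 0.099 to 0.128 and that of Ndufb8 0.065 to 0.178. All 3 were called without WT-labelled replicate 1 and with replicates 2 and 3 of each group alone. Without WT-labelled replicate 2 the only member called was Uqcrq. Without WT-labelled replicate 3 it was Atp5sl (-0.76, edgeR adjusted p = 0.031). Over 17 alternative fits the sign of all 3 stayed as given. Atp5sl was called in 11 of them (adjusted p 0.00195 to 0.135), Atp5f1 in 10 (7.3e-04 to 0.231) and Ndufb8 in 8 (0.0015 to 0.308). DESeq2 and limma-voom each called 3 members, against 33.7% and 27.1% of all tested genes.

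Of the fits that left out a single library, the one without replicate 1 of the WT-labelled group gave the most calls. Without it, 16 members were higher and 1 was lower by edgeR, 22.7% of the members against 42.8% of all tested genes. KO-labelled replicates 2 and 3 lay closest together, with a chi-square per degree of freedom between their counts of 2.37. It was 25.2 for WT-labelled replicates 2 and 3, and 79.7 to 231 for pairs with replicate 1 of the same group. A fit to replicates 2 and 3 rests on this narrow scatter, which may be technical. With replicates 2 and 3 of each group alone, 21 members were higher and 2 lower, 30.7% of the members against 52.9% of all tested genes. By complex, this fit called 9 members higher in complex I, 1 in complex II, 1 in complex III, 3 in complex IV and 7 in complex V. The largest log2 fold changes in it were those of Atp5f1 (0.70), Atp5g1 (0.68), Ndufa9 of the quinone module (0.66), Uqcrc1 (0.64) and Atp5b (0.64). Its 2 lower members were Atp5sl (-0.53) and Cox7a2l (-0.34, adjusted p = 0.018). In both fits the share of members called in either direction stayed below that of all tested genes. The higher direction alone was different. With replicates 2 and 3 alone, 3149 of 12201 tested genes were higher and 3309 lower. That is a smaller part higher than the 21 of 75 members. Without WT-labelled replicate 1, 2712 of 12343 tested genes were higher and 2568 lower, and the part higher was close to that of the members.

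**Figure D5:**
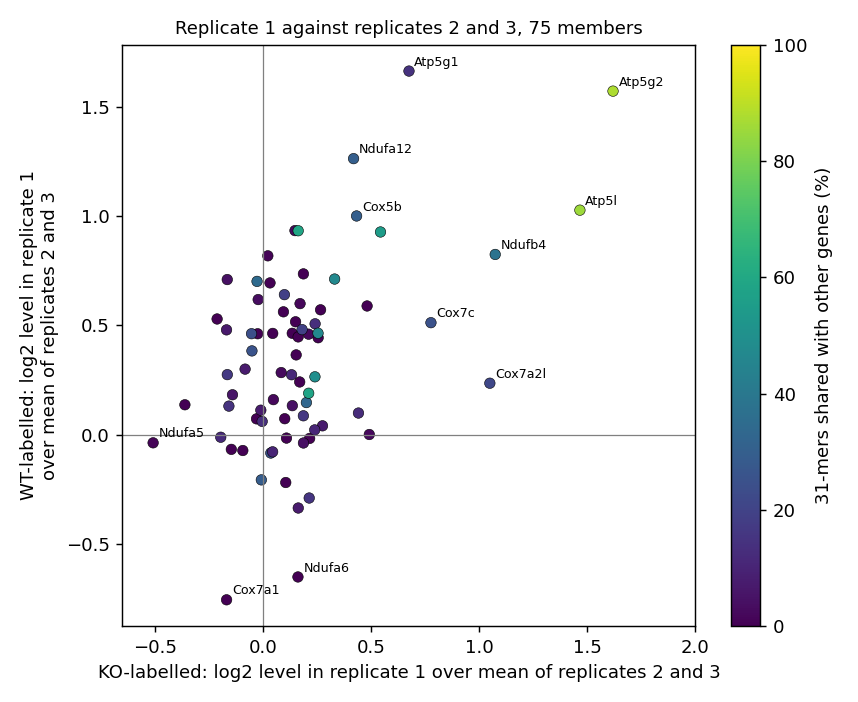
Log2 of replicate 1 over the mean of replicates 2 and 3, for each of the 75 members, in the KO-labelled (x axis) and the WT-labelled group (y axis), coloured by the share of 31-base words found in other genes. Atp5g2 (1.62 KO-labelled, 1.57 WT-labelled) and Atp5l (1.47 KO-labelled, 1.03 WT-labelled) are more than 2-fold up in replicate 1 of both groups.

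The shift of replicate 1 differed between members. Its median over the 75 was 0.15 on the log2 scale in the KO-labelled and 0.30 in the WT-labelled group. Atp5g2 of the c ring and Atp5l, a membrane subunit of ATP synthase, were at least 2-fold up in replicate 1 of both groups, as were 86 of all tested genes (0.709%). Both are among the 19 members that share 20% or more of their 31-base words with other genes, at 87.7% and 85.4%. The median shift of these 19 was 0.25 in the KO-labelled and 0.51 in the WT-labelled group, against 0.11 and 0.26 for the other 56. Single members differed: Uqcrb (58.2% shared) shifted by 0.21 and 0.19, and Atp5g1 (14.1% shared) by 0.68 and 1.66. Whether shared words bear on the shift was not tested. Atp5l had 449.6, 162 and 162 CPM in KO-labelled and 387, 234 and 146 CPM in WT-labelled libraries. The 56 members that share less gave 1 call higher and 1 lower, and a median log2 fold change of 0.09 beside 0.05 for the 19 members that share more.

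Promoters are shown for the 3 called genes, and for Atp5h and Sdhd as members that hold a match of a factor known for these genes. The sequences are the 250 bases before the annotated start, from RefSeq on GRCm38.p6, written 5′ to 3′ on the strand of the gene. Capitals mark a motif match on either strand.
Ndufb8, chr19:44555443-44555692, minus strand: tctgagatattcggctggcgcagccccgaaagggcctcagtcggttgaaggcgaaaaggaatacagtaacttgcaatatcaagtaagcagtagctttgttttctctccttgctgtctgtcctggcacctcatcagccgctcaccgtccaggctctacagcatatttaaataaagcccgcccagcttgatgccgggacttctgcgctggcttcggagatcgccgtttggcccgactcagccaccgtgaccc
Atp5f1, chr3:105959264-105959513, minus strand: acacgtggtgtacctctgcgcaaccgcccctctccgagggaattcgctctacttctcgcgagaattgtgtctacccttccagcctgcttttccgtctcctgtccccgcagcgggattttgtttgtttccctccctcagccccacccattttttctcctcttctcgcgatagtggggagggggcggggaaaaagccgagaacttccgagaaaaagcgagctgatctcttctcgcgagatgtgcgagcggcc
Atp5sl, chr7:25619164-25619413, plus strand: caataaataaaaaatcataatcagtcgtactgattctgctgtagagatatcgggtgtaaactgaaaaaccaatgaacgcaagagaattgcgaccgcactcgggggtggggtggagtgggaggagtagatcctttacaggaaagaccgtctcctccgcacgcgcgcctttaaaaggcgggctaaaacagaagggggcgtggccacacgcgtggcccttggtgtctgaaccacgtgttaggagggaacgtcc
Atp5h, chr11:115419920-115420169, minus strand: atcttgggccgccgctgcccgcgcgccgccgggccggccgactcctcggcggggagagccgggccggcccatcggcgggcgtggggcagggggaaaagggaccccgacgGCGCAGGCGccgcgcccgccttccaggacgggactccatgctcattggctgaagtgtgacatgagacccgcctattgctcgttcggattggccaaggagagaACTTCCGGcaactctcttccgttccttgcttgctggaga
Sdhd, chr9:50603850-50604099, minus strand: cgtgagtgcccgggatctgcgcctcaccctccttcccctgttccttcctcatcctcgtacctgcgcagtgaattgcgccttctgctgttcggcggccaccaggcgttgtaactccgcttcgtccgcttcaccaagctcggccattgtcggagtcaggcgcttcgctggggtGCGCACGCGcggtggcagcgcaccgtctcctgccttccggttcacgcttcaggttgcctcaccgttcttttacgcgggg

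Promoter entries were found for 65 of the 75 members, 71 promoters in all. Each window of 300 bases, 250 before and 50 after the start, was searched on both strands for the motifs of NRF1 (GCGCANGCG), GABP (CCGGAAGT), YY1 (AAGATGGCG) and ERRA (TCAAGGTCA), factors known to act on respiratory chain genes. The NRF1 letters were in 20 of 71 member promoters (28.2%), against 13.3% of the promoters of tested genes and 6.25% of all promoters. The YY1 letters were in 12.7% of member promoters against 3.05% of those of tested genes, and the GABP letters in 7.04% against 8.31%. The ERRA letters were in 2.82% of member promoters, against 0.260%. Of the sequences printed, that of Atp5h holds an NRF1 and a GABP match and that of Sdhd an NRF1 match, while the 250 bases of Ndufb8, Atp5f1 and Atp5sl hold none. In Atp5sl a YY1 match, and in Sdhd an ERRA match, lies past the start. These are letter matches and no measure of binding.

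Of 18 tested regulators of mitochondrial biogenesis 2 rose and 2 fell, beside 13.7% of all tested genes in each direction, so the count is no result about the regulators as a list. Esrra, the nuclear receptor that binds the ERRA motif, rose with 77.9, 61.3 and 56.2 CPM in KO-labelled against 35.6, 47.2 and 41.2 CPM in WT-labelled libraries (log2 fold change 0.66, edgeR adjusted p = 0.030). Polg, the mitochondrial DNA polymerase, rose by 0.57 (adjusted p = 0.043). Ppargc1a, the coactivator PGC-1alpha, fell, with 0.721, 0.606 and 0.657 CPM in KO-labelled against 1.00, 3.27 and 3.87 CPM in WT-labelled libraries (-2.02, adjusted p = 0.035). Gabpb1, a subunit of GABP, fell, with 33.6 ± 2.40 CPM in KO-labelled against 57.3 ± 4.35 CPM in WT-labelled libraries (SD, n = 3 each; -0.77, edgeR adjusted p = 0.0044). Nrf1 (-0.02), Gabpa (0.05), the DNA-binding partner of Gabpb1, and Yy1 (-0.13) were not called.

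Factors that assemble the complexes are set beside the 27.3% of all tested genes called in either direction. Of 15 factors for complex I only Ndufaf3 rose (0.68, adjusted p = 0.039), and 0 of 2 for complex II, 0 of 5 for complex III and 0 of 3 for complex V were called, with 0 of these at an unadjusted p under 0.05. For complex IV, 3 of 23 rose and 1 fell. Coa4 rose by 0.92 and Surf1, which is mutated in human Leigh syndrome, by 0.38. Cox17, a copper chaperone, had 137, 126 and 131 CPM in KO-labelled against 73.4, 93.5 and 65.5 CPM in WT-labelled libraries (0.76, adjusted p = 0.011). Cox20, which stabilizes the mitochondrially encoded subunit COX2, had 14.1, 17.7 and 16.4 CPM in KO-labelled against 26.1, 32.5 and 24.7 CPM in WT-labelled libraries (-0.79, adjusted p = 0.014).

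Subunits and carriers outside the naming pattern gave 0 calls of 8 by edgeR, with 1 at an unadjusted p under 0.05. That gene, also the most-read, was Cox4i1, the ubiquitous form of subunit 4, with 519.5, 465 and 446 CPM in KO-labelled against 376, 322 and 343 CPM in WT-labelled libraries. Its groups did not overlap, and the log2 fold change of 0.46 missed the threshold (edgeR adjusted p = 0.052). Cycs, which encodes cytochrome c, had 362, 196 and 203 CPM in KO-labelled against 356, 167 and 121 CPM in WT-labelled libraries and overlapped. Of the 15 mitochondrially encoded genes looked for, 0 were in the table, so the mitochondrial part of complexes I, III, IV and V was not analysed here.

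Genes of neighbouring mitochondrial pathways are set beside the 27.3% of all tested genes called, 13.7% in each direction. Of 17 enzymes of the citric acid cycle and pyruvate dehydrogenase 3 rose and 0 fell: Pdhb (0.63), Dlst (0.54) and Pdha1 (0.49). In so short a list this count is no result about the list. Pdhb and Pdha1 encode the E1 subunits of pyruvate dehydrogenase, and Dlst the E2 subunit of oxoglutarate dehydrogenase. Pdhb averaged 169 ± 4.40 CPM in KO-labelled and 109 ± 12.9 CPM in WT-labelled libraries (SD, n = 3 each; edgeR adjusted p = 0.011). Of 77 proteins of the mitochondrial ribosome 4 rose and 0 fell, a smaller part than of all tested genes. These were Mrps21 (1.10), Mrpl53 (0.66), Mrpl17 (0.60) and Mrpl24 (0.53). The remaining subunits of pyruvate dehydrogenase, Dlat (0.47), Dld (0.42) and Pdhx (0.36), were not called. They are named here after their values were seen. Each had an unadjusted p under 0.05 in edgeR, as did 4830 of the 12126 tested genes. The median log2 fold change was 0.19 over the citric acid cycle list and 0.09 over the mitochondrial ribosome list, beside -0.04 over all tested genes.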

How the data were processed

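Poly(A)-selected RNA was sequenced after a stranded TruSeq mRNA preparation, per the labels' protocols. The authors deposited raw counts per gene and library, not normalized. Per the submitters' processing notes, FastQC 0.11.7, HISAT2 2.0.5, featureCounts 1.5.2 and mm10 were used; the annotation and strandedness of counting: not given in the sources used here, so reads of overlapping genes cannot be told apart. Columns were matched to samples by name.

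The test was edgeR's (version 4.0.16, R 4.3.3; TMM scaling, default low-count filter leaving 12126 genes, robust quasi-likelihood test, Benjamini-Hochberg adjustment at 0.05), KO-labelled minus WT-labelled, over 3 libraries each. Values printed are TMM-scaled CPM, except those set against the level rule. The fit covered the whole table and members were read out of it. The tools were tested on simulated data.

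Members and lists were chosen with earlier results of these data known. Named were the most-read member of each complex, called members, isoform pairs, the complex II subunits, Tnfaip3, and the called genes of each list or else its most-read; further members were named after their values were seen. Shares of 31-base words found in other genes' transcripts used GENCODE transcripts of the same assembly; promoters came from RefSeq, and the letters used for the NRF1 and YY1 motifs were shortened by 1 base after a first search. Subunits were assigned to complexes by textbook knowledge. Alternatives were 3 scalings, no low-count filter, DESeq2 1.42.0, limma-voom (limma 3.58.1), non-robust dispersion, a replicate block, a term for replicate 1, replicates 2 and 3 alone or summed, adjusted p of 0.01, and leaving out each library. Depth limits precision: a count of 3, the floor, was 0.125 to 0.179 CPM. Per-library shares have no interval, as they are compared over libraries. Of the members 1 is counted in all totals but not reported here by itself.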

Additional observations from a re-analysis of the deposited data

How the results depend on the processing

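The share of members called was below that of all tested genes in each of the 18 alternatives run, while the number of calls moved. Members higher and lower in KO-labelled libraries, 2 and 1 as reported, were 1 and 1 with library totals and without the low-count filter, 0 and 0 with the replicate block, with replicates 2 and 3 summed and at an adjusted p of 0.01, and 21 and 2 with replicates 2 and 3 alone. Leaving out single libraries gave 0 to 16 higher and 0 to 1 lower. All tested genes called, 3316 as reported, were 2023 with the replicate block, 6458 with replicates 2 and 3 alone, 1061 with replicates summed and 1694 at an adjusted p of 0.01, and 1855 to 5280 with single libraries left out. The cause of these changes was not tested beyond the fewer libraries or the stricter threshold that some of them carry.

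Among the members followed by name, those whose log2 fold change changed sign were uncalled in the fit reported; Cox7a2l was called lower with replicates 2 and 3 alone. Sdha was -0.022 with replicates summed. Cox7a2l was -0.050 with limma-voom, -0.047 with the replicate block, -0.049 with a term for replicate 1 and -0.34 with replicates 2 and 3 alone. Sdhc was -0.0031 with upper-quartile scaling. With single libraries left out the ranges were -0.082 to 0.33 for Sdha, -0.089 to 0.18 for Sdhc, -0.047 to 0.32 for Sdhd, -0.25 to 0.10 for Uqcrh, -0.40 to 0.23 for Cox7a2l, -0.072 to 0.36 for Cox8a, -0.12 to 0.96 for Atp5g1 and -0.93 to 0.56 for Atp5g2, and the Atp5g3 share differed by -2.66 to 7.69 percentage points. The cause was not tested.

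Replicate numbers were not taken to pair the libraries, as the labels state no pairing. Deviations of same-numbered libraries correlated at -0.006, -0.055 and 0.052 across all tested genes. These low values cannot decide on pairing, since some genes, Gapdh among them, were up in replicate 1 of both groups. Across the 75 members, which share libraries and are no replicates, the replicate 1 shifts of the groups correlated at 0.48 (all tested genes -0.052). With the replicate block, adjusted p was 0.050 for Atp5f1, 0.068 for Atp5sl and 0.13 for Ndufb8. With 3 libraries a group the test is limited, and an uncalled member is not shown to be equal.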
